A study of Mus musculus with 367 samples.

Results

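The 7 genes Col1a1, Col1a2, Col3a1, Col5a1, Col5a2, Col5a3 and Col11a1 encode the chains of the fibrillar collagens of skin and wound tissue. They were taken by name from the 50600 genes listed for single cells of mouse skin wounds, and all 7 were found. The cells came from Sm22-Cre;tdTomato mice of mixed background, of both sexes and 6 to 8 weeks old, whose back skin had been wounded 12, 15 or 21 days before, and every group shares this genotype and injury. Sm22-Cre drives Cre recombinase from the promoter of Tagln, a gene of smooth muscle and contractile cells, so that tdTomato marks cells in which that promoter is or was active. At each time point wounds from 2 to 3 mice went into a shared pool, viable tdTomato-high cells were sorted and captured singly in a microfluidic chip, and full-length cDNA was sequenced. It is not stated whether captures of a day came from different mice, so p-values measure only the spread between captures, which may be technical.

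In a fibrillar collagen, chains wind into a triple helix, are trimmed outside the cell and pack into banded fibrils. Type I collagen, built from the Col1a1 and Col1a2 chains, gives dermis and scar their tensile strength, and type III collagen, a homotrimer of the Col3a1 chain, is laid down early in wound repair. Type V collagen, from Col5a1, Col5a2 and the less widely expressed Col5a3, is buried inside type I fibrils, starts their assembly and limits their width. Col11a1 encodes a chain of type XI collagen, which plays the corresponding part in cartilage and can join type V chains in mixed molecules.

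Of 367 cells, 292 were kept from 3 captures at day 12, 2 at day 15 and 2 at day 21, with 27 to 73 cells per capture. The median number of fragments per cell, an estimate since the files hold no counts, was 937754 to 2329683 in the 7 captures, and the median of genes detected was 4845 to 6233. Values are FPKM, which corrects fragments for the length of a transcript and the depth of its cell, so that levels of different genes can be set side by side. The 3 kinds of cell compared were set by expression limits. Matrix cells had Col1a1 of at least 1000, Rgs5 under 100 and Tyrobp under 50 FPKM (198 cells, 17 to 50 per capture). Cells named mural here, after the pericytes and smooth muscle of vessel walls, had Rgs5 of at least 500 and Tyrobp under 50 (57 cells in 6 captures). That name rests on expression alone, since the place of these sorted cells in the wound was not recorded. It does not set pericytes apart from wound fibroblasts with Rgs5. The paper stained day 12 wounds for RGS5 protein and found positive cells across the dermis, most of them outside blood vessels. It treats cells of high Rgs5 as a fibroblast population of low Pdgfra. Finally, myeloid cells had Tyrobp of at least 500 (26 cells in 6 captures). Another 11 cells met none of these limits. The names were checked on markers that the limits did not use. All 5 matrix markers, among them Dcn, Lum and Pdgfra, were detected in most matrix cells, 5 of 6 mural markers such as Notch3 in most mural cells, and 8 of 8 myeloid markers such as Cd68 and Ptprc in most myeloid cells. In matrix cells the summed level of the 6 mural markers was 0.305 to 10.97 FPKM and that of the 8 myeloid markers 6.50 to 67.2 FPKM by capture, and no gene of either list was detected in most of them. Matrix markers were less well kept out of the other kinds: 4 of the 5 were detected in most mural cells and in most myeloid cells, and their summed level by capture was 912 to 3693 FPKM in mural and 24.98 to 3331 FPKM in myeloid cells, against 8031 to 12309 FPKM in matrix cells.

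The genes lie on 6 chromosomes (GRCm38, GENCODE mouse release M21): Col1a1 at chr11:94936224-94953042, Col1a2 at chr6:4504814-4541544, Col3a1 at chr1:45311538-45349706, Col5a1 at chr2:27886425-28039514, Col5a2 at chr1:45374321-45503282, Col5a3 at chr9:20770050-20815067 and Col11a1 at chr3:114030540-114220718. Col5a2 and Col5a3 are on the minus strand and the other 5 on the plus strand. Col3a1 and Col5a2 are neighbours, with 24.6 kb and no annotated gene between them, and point towards each other. A transcript still awaiting experimental support, Gm38211, lies within Col5a2 on the same strand and was above 0 in 124 of 198 matrix cells, with a mean of 12.3 FPKM, so the split of fragments between these overlapping genes is uncertain. Gm43921 within Col1a2 was above 0 in 49 matrix cells. Gm47302, a miRNA gene that overlaps Col3a1 on the same strand, was above 0 in 8 matrix cells, with a mean of 20.8 FPKM over all 198.

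RefSeq promoter sequences were found for 5 of the 7 genes, Col1a1 and Col5a2 being the exceptions, and the Col1a2 window, which overlaps an annotated exon, is not printed. The sequences of 3 are shown, as the 250 bases before the start on GRCm38.p6, because these genes stood apart in the results: Col3a1 as 1 of the 3 abundant chains, and Col5a3 beside Col5a1 as type V genes whose order changed between kinds of cell. Capitals mark matches, on either strand, to the CCAAT box (CCAAT or ATTGG), the TATA box (TATAAA or TTTATA) and the GC box (GGGCGG or CCGCCC).

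Col3a1, chr1:45311288-45311537, plus strand: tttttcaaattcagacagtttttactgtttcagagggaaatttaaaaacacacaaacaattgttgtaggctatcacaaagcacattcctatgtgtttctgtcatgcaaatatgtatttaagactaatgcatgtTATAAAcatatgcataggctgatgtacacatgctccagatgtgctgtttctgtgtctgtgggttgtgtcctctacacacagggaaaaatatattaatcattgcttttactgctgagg

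Col5a1, chr2:27886175-27886424, plus strand: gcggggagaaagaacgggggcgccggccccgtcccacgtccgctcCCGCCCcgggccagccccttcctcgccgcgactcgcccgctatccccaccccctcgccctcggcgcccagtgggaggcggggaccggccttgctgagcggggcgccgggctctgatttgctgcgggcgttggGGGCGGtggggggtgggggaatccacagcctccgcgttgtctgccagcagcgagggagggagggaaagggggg

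Col5a3, chr9:20815068-20815317, minus strand: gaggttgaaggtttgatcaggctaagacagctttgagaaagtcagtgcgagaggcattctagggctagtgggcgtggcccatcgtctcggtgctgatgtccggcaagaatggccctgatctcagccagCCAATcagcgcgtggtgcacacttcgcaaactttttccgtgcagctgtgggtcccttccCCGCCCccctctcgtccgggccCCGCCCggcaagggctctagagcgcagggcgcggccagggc

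The Col3a1 window held a TATAAA, 117 bases before the start, and neither other motif, and its GC content was 35.2%. The Col5a1 window, at 76.4% GC, held 2 GC boxes and no CCAAT or TATAAA. The Col5a3 window, at 62.8% GC, held a CCAAT 122 bases before the start and 2 GC boxes. Among 32851 RefSeq promoters of the same length, 33.8% held a CCAAT box, 12.4% a TATA box and 32.7% a GC box, and the median GC content was 52.4%. These matches describe the letters only.

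Type I and type III chains were the most abundant of the 7 in matrix cells, and each was above 0 in 198 of 198 cells. Mean FPKM of Col1a1, on which these cells were chosen, was 7687, 4426 and 4909.7 in the 3 captures of day 12, 9427 and 13523 in the captures of day 15, and 12944 and 6334 in the captures of day 21. Col1a2 had means of 5908, 3669 and 6029 FPKM at day 12, 9673 and 7549 at day 15, and 7016 and 7329.5 at day 21. Col3a1 had means of 7560.0, 5681 and 7188 FPKM at day 12, 14504 and 9406 at day 15, and 10455 and 13290.0 at day 21. Day 12 capture 2 was the lowest for all 3 genes, and the highest was a day 15 capture. The order among the 3 was not stable: Col3a1 was above Col1a1 in 4 of 7 captures, with a mean log2 difference of 0.25 ± 0.56 (SD, n = 7), and Col1a1 was above Col1a2 in 4 of 7, by 0.26 ± 0.48. In single cells, Col3a1 was above Col1a1 in 124 of 198 (62.6%). The limit on Col1a1 removed few cells. The lowest matrix cells stood at 1011, 1179.6 and 1675 FPKM, and 4 cells with low Rgs5 and Tyrobp fell under it, at 209, 478, 505 and 612 FPKM.

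Type V chains were far lower, and the 3 kept their order in every capture. Col5a2 followed Col1a2 by a mean of 4.02 ± 0.41 on the log2 scale, in 7 of 7 captures. Its means were 422, 383 and 396 FPKM at day 12, 573 and 419 at day 15, and 311 and 347 at day 21. Col5a1 was below Col5a2 in 7 of 7 captures, by 1.03 ± 0.38, with means of 227, 237 and 142 FPKM at day 12, 243 and 268 at day 15, and 106 and 208 at day 21. Both were above 0 in all 198 matrix cells.

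Col5a3 was lower again, by 3.31 ± 0.94 than Col5a1 in 7 of 7 captures, and it was patchy. Its means were 38.5, 34.8 and 25.4 FPKM at day 12, 12.6 and 12.1 at day 15, and 17.2 and 8.997 at day 21. It was above 0 in 125 of 198 matrix cells, and among stromal cells of low Rgs5, with no limit on Col1a1, its coefficient of variation between the cells of a capture was 115% to 317%, against 28.2% to 56.5% for Col1a1. Col11a1, the cartilage-type chain, was below Col5a3 in 6 of 7 captures, by 1.56 ± 1.03, with capture means of 2.79 to 13.8 FPKM. It was above 0 in 44 matrix cells, at 10 FPKM or more in 20 and at 100 or more in 4, with 185.67 FPKM as the highest value, and the 5 highest cells held 50.01% of all its FPKM. Its capture means thus rested on few cells.

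**Figure D1:**
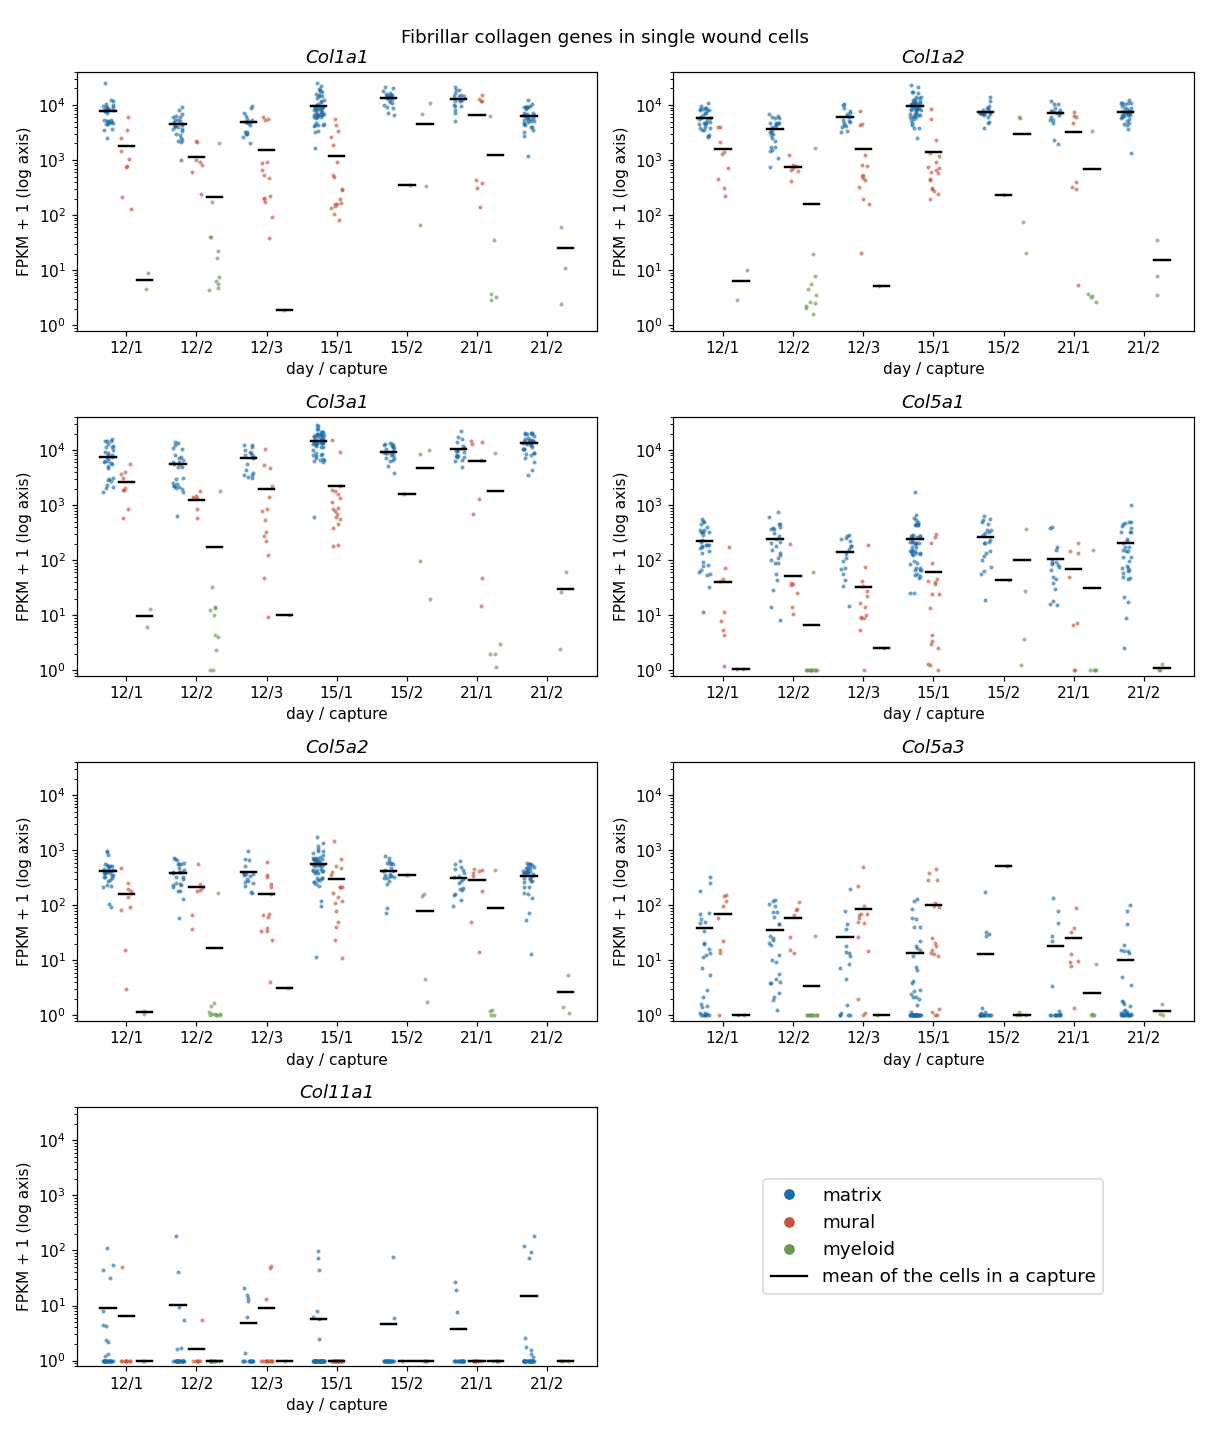
FPKM + 1 (log axis) of the 7 genes in single cells, by day and capture on the horizontal axis, with matrix cells in blue, mural cells in red and myeloid cells in green, 1 point per cell, and black bars at the capture means. Col1a1, Col1a2 and Col3a1 means of matrix cells lie between 3669 and 14504 FPKM, while Col5a3 means of mural cells lie between 24.6 and 527 FPKM (the latter from 1 cell), above the matrix cells of the same capture.

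Mural cells carried less of the 3 abundant chains than the other stromal cells of the same capture. For this comparison the other stromal cells were those with Rgs5 under 100 and Tyrobp under 50 FPKM, with no limit on a collagen, and the 5 captures with at least 3 cells of both kinds gave 56 mural and 145 other stromal cells. Mural means of Col1a1 were 1829, 1134 and 1514 FPKM in the day 12 captures, 1193 in day 15 capture 1 and 6689 in day 21 capture 1, against 7687, 4426, 4909.7, 9252 and 11684 in the other stromal cells. The mural value was the lower in 5 of 5 captures, and only the day 21 mural mean reached into the range of the other stromal cells. The fitted difference was -1.90 on the scale of log2(mean FPKM + 1) (SE 0.23, limma adjusted p = 0.00327), a 3.73-fold lower level. Col1a2 was 3.92-fold lower (-1.97, SE 0.20, limma adjusted p = 0.00156), with mural means of 1600.2, 747, 1578, 1400.2 and 3212 FPKM against 5908, 3669, 6029, 9500.1 and 6361. Col3a1 was 3.40-fold lower (-1.77, SE 0.23, limma adjusted p = 0.0047), with mural means of 2608, 1254, 1974, 2243 and 6310.5 FPKM against 7560.0, 5681, 7188, 14236 and 9445. Both were lower in 5 of 5 captures, and the means of Col1a2 in the 2 kinds of cell did not overlap. Of all 13874 genes tested, 0.584% passed as lower, and the median difference of all genes was -0.24. With no filter on low values, which tests all genes above 0, none of the 3 was called (limma adjusted p = 0.173 to 0.257).

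The type V chains did not move as a block. Col5a1 had mural means of 39.5, 50.1, 32.2, 60.1 and 69.04 FPKM against 227, 237, 142, 239 and 97.9, lower in 5 of 5 captures, and its difference of -1.86 (SE 0.41) had a limma adjusted p of 0.0572. Without day 21 capture 1 it passed, at -2.20 with an adjusted p of 0.0288. Col5a2 had mural means of 161, 211, 160.5, 294 and 286 FPKM against 422, 383, 396, 568.5 and 288, a difference of -0.90 (SE 0.28, limma adjusted p = 0.171). Both genes were lower in mural cells in every capture tested, Col5a2 by only 0.01 on the log2 scale at day 21.

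Col5a3 pointed the other way. Mural means were 68.9, 57.1, 86.4, 101 and 24.6 FPKM, against 38.5, 34.8, 25.4, 16.3 and 25.3 in the other stromal cells. The mural value was higher in 4 of 5 captures, and at day 21 the 2 values lay side by side. The mean difference of 1.16 (SE 0.51) did not pass the test on capture means (limma adjusted p = 0.348). When FPKM were averaged over cells on the log2 scale, which gives single cells with high values less weight, Col5a3 was higher by 2.02 (limma adjusted p = 0.00726), in a fit that called 4.41% of genes. That fit called 6 members, with Col5a1 at -2.69 (adjusted p = 0.0011) and Col5a2 at -1.44 (adjusted p = 0.0435) as the others besides the 3 abundant chains. Pooled over captures and days, Col5a3 was above 0 in 93.0% of mural cells (53 of 57, exact Clopper-Pearson 95% interval 83 to 98.1%). It was above 0 in 63.1% of matrix cells and 23.1% of myeloid cells (6 of 26). Median depths were 1216200, 1441640 and 2098130 estimated fragments. The interval leaves out the spread between captures, and the kinds differ in their mix of days. At day 12, 8 of 9, 7 of 7 and 13 of 14 mural cells had it by capture. Matrix cells had it in 25 of 31, 26 of 26 and 13 of 17. In day 15 capture 1 this was 16 of 18 against 24 of 50, and in day 21 capture 1 8 of 8 against 8 of 18. The gap was thus smaller at day 12 than later. Col11a1 was above 0 in 5 of 57 mural cells and differed by -1.39 (SE 0.74, limma adjusted p = 0.435).

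**Figure D2:**
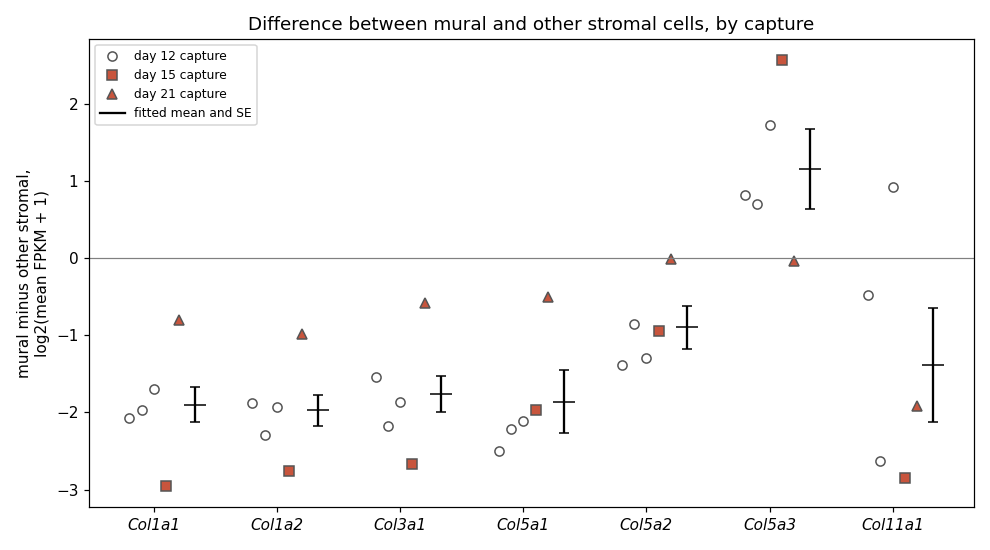
Mural minus other stromal cells, in log2(mean FPKM + 1), for the 7 genes in each of 5 captures (open circles day 12, squares day 15, triangles day 21), with black bars at the fitted mean and its SE. Differences of Col1a1 lie between -2.95 and -0.80, those of Col5a3 between -0.04 and 2.56, and the day 21 capture lies nearest to 0 for all but Col11a1.

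The order within type V differed between kinds of cell, as seen after the values were known and so given without a test. Col5a3 exceeded Col5a1 in 34 of 57 mural cells (59.6%) and in 10 of 198 matrix cells (5.05%). By capture, the count was 5 of 9, 5 of 7 and 9 of 14 mural cells at day 12, 10 of 18 at day 15 and 4 of 8 at day 21. In the other stromal cells it was 1 of 31, 0 of 26 and 2 of 17 at day 12, 1 of 51 at day 15 and 5 of 20 at day 21. The ratio of mean Col5a3 to mean Col5a1 was 1.75, 1.14, 2.69, 1.69 and 0.357 in mural cells against 0.170, 0.147, 0.178, 0.0684 and 0.258. The mural ratio was higher in 5 of 5 captures, by 3.06 ± 1.58 (SD) on the log2 scale, least at day 21, where the gap was 0.46.

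**Figure D3:**
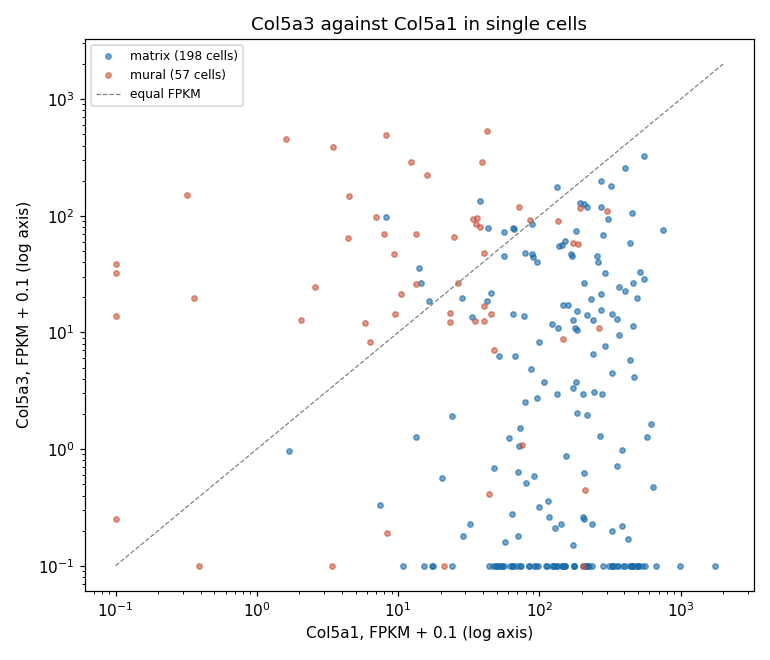
Col5a3 against Col5a1 in single matrix (blue) and mural (red) cells, both as FPKM + 0.1 on log axes, with a dashed line of equal FPKM. Points above the line are 34 of 57 mural and 10 of 198 matrix cells.

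Mural cells were not of a kind in their collagen. Col1a1 was at 1000 FPKM or more in 19 of 57 (33.3%), with 5 of 9, 2 of 7 and 3 of 14 in the day 12 captures, 5 of 18 at day 15 and 4 of 8 at day 21. In day 21 capture 1 the 8 cells fell apart into 4 with 11792 to 15439 FPKM and 4 with 141 to 430 FPKM, so its mean described neither set. Markers of matrix cells moved with this split. Dcn, a small proteoglycan that coats collagen fibrils, had a median of 2097 FPKM in the 19 cells and 12.0 in the other 38, and was at 1000 or more in 14 and 3 of them. Rgs5, a gene of a G-protein regulator, had medians of 2433 and 8552 FPKM, the mural receptor gene Notch3 3.51 and 23.4 FPKM, and the median of genes detected was 8086 and 4834.5. Across the mural cells of a capture, Spearman's rho between Col1a1 and Dcn was 0.50 to 0.87 over 7 to 18 cells, in 5 captures. Cells of a capture are not replicates, and this rho is a description. The part of these markers in the comparison was not tested. Without mural cells of Dcn at 1000 FPKM or more, a choice made after seeing the data, Col1a1 differed by -3.50, Col1a2 by -3.37, Col3a1 by -3.13, Col5a1 by -3.18 and Col5a3 by 1.19. Since Dcn and Col1a1 went together in mural cells, this choice itself takes out the cells of high collagen, and the values are a description with no test.

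**Figure D4:**
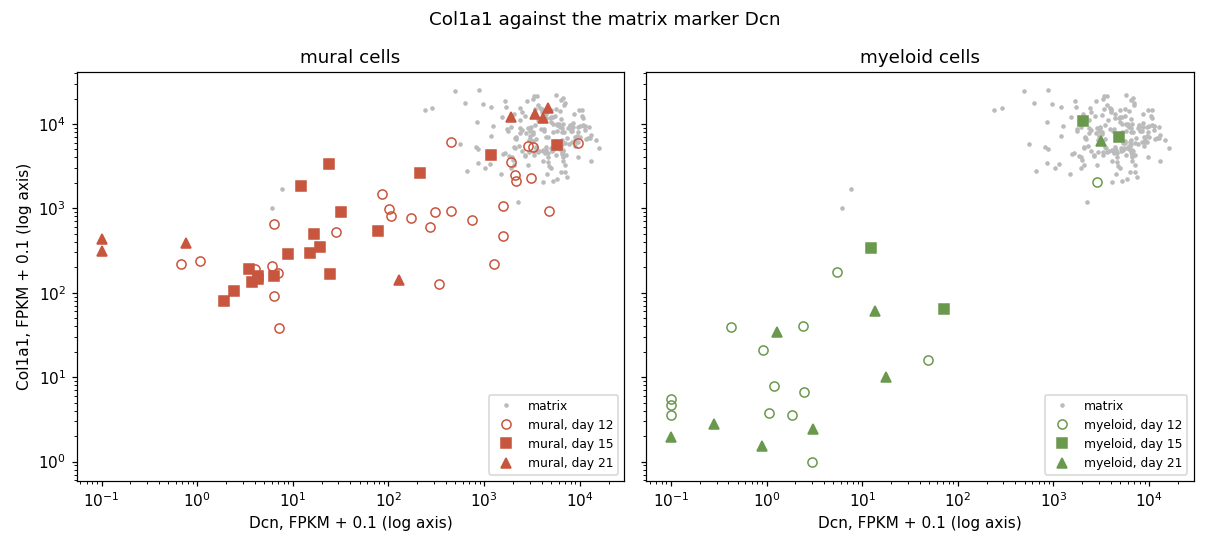
Col1a1 against the matrix marker Dcn, both as FPKM + 0.1 on log axes, in mural cells (left, red) and myeloid cells (right, green) by day, with matrix cells in grey behind them. Of 57 mural cells 19, and of 26 myeloid cells 4, have Col1a1 of at least 1000 FPKM, and 14 of the former and all 4 of the latter also have Dcn of at least 1000 FPKM.

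Myeloid cells held little collagen RNA, apart from 4 cells. Col1a1 had a median of 12.9 FPKM over the 26 cells, with 0.88 as the lowest and 10805 as the highest value, and 20 were under 100 FPKM. The 4 cells at 1000 or more (1 in day 12 capture 2, 2 in day 15 capture 2 and 1 in day 21 capture 1) had Col1a1 of 2047 to 10805, Dcn of 2057 to 4827, Tyrobp, an adaptor of myeloid receptors, of 1343 to 2708, and the leukocyte gene Ptprc at a median of 3.33 FPKM. In the other 22 cells Dcn was at most 72.2, Tyrobp 2354 to 8317 and the median of Ptprc 159 FPKM. The median of genes detected was 6374.5 in the 4 cells and 4919 in the other 22. The paper states that only wells with a singly captured cell entered its own analyses. Whether any of these 4 wells held more than 1 cell was not tested.

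Set against all stromal cells (Tyrobp under 50 FPKM) in the 4 captures with at least 3 cells of both kinds, myeloid means of Col1a1 were 215 FPKM in day 12 capture 2, 4533 in day 15 capture 2, and 1248 and 23.8 in the captures of day 21, against 3703, 12951, 10256 and 6121. The myeloid value was lower in 4 of 4 captures, by 1.51 to 7.95 on the log2 scale. The fit called 5 members as lower, where 5.63% of 13284 genes were lower and the median of all genes was -1.07. Col1a1 differed by -4.15 (SE 0.76, limma adjusted p = 0.0202), Col1a2 by -4.34 (limma adjusted p = 0.0272), Col3a1 by -4.17 (0.0326), Col5a2 by -3.87 (0.0469) and Col5a3 by -3.80 (0.0366). Col5a1 did not pass, at -3.82 (limma adjusted p = 0.0721). Col11a1 was above 0 in 0 of 26 myeloid cells, with an exact 95% upper bound of 13.2%, and no fold is given. None of the 7 was called without day 12 capture 2 (limma adjusted p for Col1a1 0.0679), while leaving out any other capture left Col1a1, Col1a2 and Col3a1 called. Col1a1 then differed by -2.88 without day 21 capture 2 and by -5.03 without day 15 capture 2. Col5a2 and Col5a3 were not called whichever capture was left out (limma adjusted p 0.0713 to 0.129 and 0.0802 to 0.0942). No member was called with a pseudocount of 10 (adjusted p for Col1a1 0.0535) or with all genes above 0 tested (0.239), and only Col1a1 was called without the filter on cells (0.0431). Without the 4 cells of Dcn at 1000 or more, chosen after seeing the data, Col1a1 differed by -8.20, Col5a1 by -7.21 and Col5a3 by -4.40 in the 3 captures left. As these are the same 4 cells that held Col1a1 at 1000 or more, larger differences follow from the choice, and no test is given.

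Over the days, the 3 abundant chains had higher means at days 15 and 21 than at day 12 in matrix cells, and Col5a3 a lower one, but no member passed the test. Of 13552 genes tested, 0.0% were called between days 12 and 15, 0.00738% (1 gene, not a member) between days 12 and 21, and 0.0% between days 15 and 21, while 791, 968 and 745 had an unadjusted limma p under 0.05, among them 2, 1 and 0 of the 6 members other than Col1a1. From day 12 to day 15 Col1a2 differed by 0.75 (SE 0.25, limma adjusted p = 0.706) and Col3a1 by 0.79 (SE 0.23, limma adjusted p = 0.68). From day 12 to day 21 these were 0.50 (limma adjusted p = 0.723) and 0.80 (limma adjusted p = 0.478). Col1a1, whose level had chosen the cells, was tested without that choice, and differed by 1.02 at day 15 (limma adjusted p = 0.742) and by 0.62 at day 21 (limma adjusted p = 0.752). The median difference of all genes was -0.10 and -0.19 in these comparisons.

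Capture means of days 12 and 15 did not overlap for 4 of the 6 members other than Col1a1, where this held for 21.8% of all genes: Col1a2, Col3a1 and Col5a1 were higher and Col5a3 lower at day 15. Between days 12 and 21 the means did not overlap for 4 of the 6 (22.3% of all genes), with Col1a2 and Col3a1 higher and Col5a2 and Col5a3 lower. Between days 15 and 21 this held for 3 of the 6 (29.7% of all genes), Col1a2, Col5a1 and Col5a2, all lower at day 21. The differences from day 15 to day 21 ranged from -0.78 for Col5a1 to 0.57 for Col11a1, and the limma adjusted p values from 0.887 to 1. Col5a1 and Col11a1 had low values in day 21 capture 1, at 106 and 2.79 FPKM, and 208 and 13.8 FPKM in day 21 capture 2.

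Col5a3 had lower means and a lower share of cells after day 12, and the difference in level did not pass. Its mean difference was -1.32 at day 15 (SE 0.61, limma adjusted p = 0.865) and -1.31 at day 21 (limma adjusted p = 0.717). It was above 0 in 25 of 31, 26 of 26 and 13 of 17 matrix cells at day 12, in 24 of 50 and 7 of 22 at day 15, and in 8 of 18 and 22 of 34 at day 21. The share was lower in all 4 later captures than in all 3 of day 12, which held for 11% of genes. Pooled by day it was 86.5% (95% interval 76.5 to 93.3%), 43.1% (31.4 to 55.3%) and 57.7% (43.2 to 71.3%). These intervals take cells as independent and leave out the spread between captures, so they are no test of the days. Median depths were 1617280, 971169 and 2227200 estimated fragments, so the day of the lowest share was also that of the lowest depth. Acta2, the smooth muscle actin gene of myofibroblasts, also had lower values after day 12: its mean in matrix cells was 378, 573 and 131 FPKM at day 12, 29.6 and 12.9 at day 15, and 21.5 and 42.2 at day 21. Between the cells of a capture, rho of the 2 genes had a median of 0.10 over 7 captures (-0.38 to 0.66), and was above 0 in 6 of them. The part of depth and of contractile cells in the Col5a3 values was not tested.

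Ratios between chains spread widely within a day. The ratio of mean Col1a2 to mean Col1a1 was 0.769, 0.829 and 1.23 at day 12, 1.03 and 0.558 at day 15, and 0.542 and 1.16 at day 21. Col3a1 to Col1a1 was 0.984, 1.28 and 1.46, then 1.54 and 0.696, then 0.808 and 2.10. Captures of days 15 and 21 each held both a high and a low value of either ratio. Col5a2 to Col5a1 was 1.86, 1.61 and 2.78 at day 12, 2.35 and 1.56 at day 15, and 2.92 and 1.67 at day 21. Since Col1a1 chose the matrix cells, ratios and shares were tested in all stromal cells of low Rgs5, with no limit on Col1a1. There none of the 3 ratios passed the test by day (exact permutation test over 210 assignments of captures, adjusted p = 0.876 for each). Type V (Col5a1 plus Col5a2) as a percent of type I (Col1a1 plus Col1a2) was 4.77, 7.66 and 4.92 at day 12, 4.27 and 3.26 at day 15, and 2.09 and 4.06 at day 21. All 4 later values were below all 3 of day 12. With no limit on Col1a1 they ran from 2.14 to 4.30 percent later and from 4.77 to 7.66 percent at day 12, and the test gave an exact permutation p of 0.162 (adjusted p = 0.405).

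The 7 genes together took 2.96%, 1.88% and 2.44% of the FPKM of matrix cells at day 12, 4.71% and 4.20% at day 15, and 4.68% and 3.54% at day 21. The later captures were all higher. With no limit on Col1a1 the share was 1.88% to 2.96% at day 12 and 3.45% to 4.62% later, which did not pass (exact permutation p = 0.0286, adjusted p = 0.143 over the 5 values compared, with 0.00952 as the smallest p these captures allow). In single matrix cells the share ran from 0.356% to 11.2%. Mural cells gave 0.781%, 0.428%, 0.689%, 0.62% and 2.47% in the 5 captures compared.

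**Figure D5:**
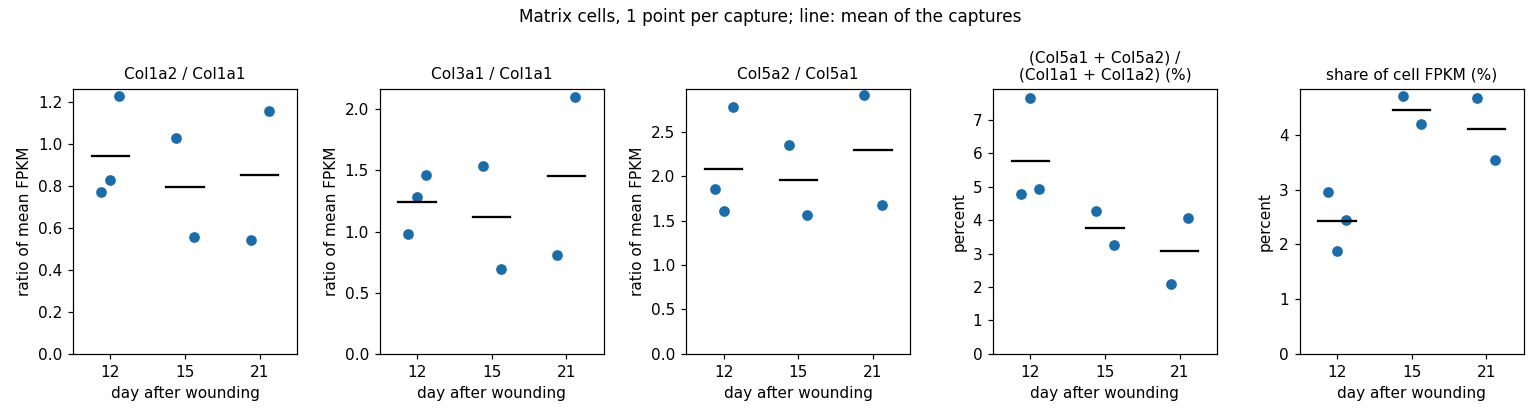
Ratios of mean FPKM between chains, type V as a percent of type I, and the percent of FPKM on the 7 genes in matrix cells (vertical axes), by day after wounding, with 1 point per capture and a line at their mean. The percent of FPKM is 1.88 to 2.96 at day 12 and 3.54 to 4.71 later, while the Col1a2 to Col1a1 ratio spans 0.542 to 1.23 with overlap between all days.

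Type I chains were closely correlated from cell to cell, and type V chains weakly. Within the matrix cells of a capture, Spearman's rho between Col1a1 and Col1a2 had a median of 0.87 over 7 captures (0.73 to 0.94). It was 0.58 (0.33 to 0.80) for Col1a2 and Col3a1 and 0.42 (0.22 to 0.79) for Col1a1 and Col3a1. For Col5a1 and Col5a2, partners in the same trimer, it was 0.22 (-0.10 to 0.53), and for Col5a3 with Col1a1 -0.15 (-0.42 to 0.13). These cells share a capture and are not replicates, the FPKM of each cell is scaled to its own total, and rho is a description. With estimated fragments per cell the medians were between -0.13 and 0.21 for the 7 genes.

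The genes most like each member over the matrix cells of 7 captures, by mean rho among 4543 genes, were led by Sparc for the abundant chains. For Col1a1 these were Sparc (0.58), the collagen-binding secreted protein osteonectin, Cercam (0.48) and Thbs2 (0.48), a thrombospondin. Col1a2 had Sparc (0.63), Thbs2 (0.48) and Cercam (0.45), and Col3a1 had Sparc (0.44), Dcn (0.37) and Sfrp2 (0.36), a secreted Wnt modulator. Type V genes had weaker leaders: Fn1 (0.27), Thbs2 (0.26) and Itgb5 (0.25) for Col5a1, Postn (0.39), Glg1 (0.37) and Ggcx (0.28) for Col5a2, and Gm47738 (0.29), Il1r1 (0.28) and Col6a3 (0.27) for Col5a3.

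The other 4 fibrillar collagen genes were low. Col2a1, the main collagen of cartilage, and Col11a2 were each above 0 in 1 of 198 matrix cells. Col24a1 was above 0 in 105 of 198 matrix cells (53.03%) and 16 of 57 mural cells. Its matrix means were 24.04, 41.2 and 32.2 FPKM at day 12, 23.8 and 21.2 at day 15, and 9.71 and 4.82 at day 21. No 2 days overlapped, but days 12 and 15 came close, at 24.04 and 23.8 FPKM. By pair of days, 21.8% to 29.7% of all genes did not overlap. The Col24a1 difference between days 12 and 21 of -2.05 (SE 0.62) did not pass (limma adjusted p = 0.513). Its mural means of 0.146 to 2.90 FPKM were lower than those of other stromal cells in 5 of 5 captures, with a difference of -3.40 (limma adjusted p = 0.043). Col27a1 was above 0 in 138 matrix cells (69.7%), with capture means of 6.43 to 20.7 FPKM, and differed by -1.16 in mural cells (limma adjusted p = 0.423).

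Genes of the collagen pathway were read as 3 lists. Of 33 genes of procollagen maturation (hydroxylases, chaperones, proteinases and cross-linking oxidases) 29 were tested between mural and other stromal cells, and 1 passed, the lysyl oxidase gene Loxl1, which differed by -2.60 (SE 0.49, limma adjusted p = 0.0326), and with a capture left out 0 to 1 passed. The median of the 29 was -0.94, against -0.24 for all genes. Of 14 fibril partners, proteins that bind or coat fibrils, 12 were tested and 6 were lower in mural cells, with a median of -1.71, where 0.584% of all genes passed as lower. With a capture left out 3 to 8 of the 12 passed, 3 without day 12 capture 1, day 12 capture 3 or day 15 capture 1. Their differences were -3.45 for Lum, -2.35 for Thbs2, -2.07 for Dcn, -1.998 for Col12a1, -1.42 for Postn and -1.16 for Sparc (limma adjusted p from 0.0032 to 0.0316). Lum, Dcn and Col12a1 are also among the matrix markers used to check the names of the kinds, so their calls partly restate those names. Of 7 collagen receptors 6 were tested and 0 passed limma, with a median of 0.30. Without day 21 capture 1, 1 passed as higher in mural cells, and 0 passed without any other capture. An unadjusted limma p under 0.05 was found for 1 of the 6, and for 1957 of all 13874 genes.

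In myeloid cells 11 of 29 maturation genes were lower than in stromal cells, with a median of -3.41 against -1.07 for all genes, of which 5.63% passed as lower. These calls rested on all 4 captures: with 1 left out 0 to 4 passed, and 0 without day 12 capture 2. They were led by the prolyl isomerase gene Fkbp14 (-5.28), the collagen chaperone gene Fkbp10 (-4.51), the collagen regulator Creb3l1 (-4.44), the enhancer of C-proteinase Pcolce (-4.24) and the prolyl hydroxylase gene P3h1 (-4.24). Fibril partners were lower for 8 of 12 (0 to 5 with a capture left out, 0 without day 12 capture 2). The largest differences were those of Ogn (-5.25), Thbs2 (-4.81), Sparc (-4.73), Col12a1 (-4.54) and Dcn (-4.30). The matrix markers Dcn, Lum and Col12a1 were among the 8 here too. Of the receptors 0 of 4 passed limma. An unadjusted limma p under 0.05 was found for 3 of the 4, and for 3823 of all 13284 genes. Between days, 0 of 30 maturation genes, 0 of 12 partners and 0 of 4 receptors passed limma in any comparison, and at most 6, 6 and 0 of them had an unadjusted p under 0.05.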

How the data were processed

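Full-length cDNA of single sorted wound cells was measured in 7 microfluidic captures. The deposited values are FPKM, which the authors computed per cell with RSEM and Bowtie 1.0.0 on mm10 with GENCODE mouse release M13. The files hold no counts. Fragments per cell were estimated from the steps between FPKM values. Cells under 159000 estimated fragments, over 11000 genes or over 15% of mitochondrial FPKM were dropped. FPKM were averaged over the cells of a kind per capture and tested as log2(mean FPKM + 1) with limma 3.58.1 in R 4.3.3 (variance trend, two-sided, Benjamini-Hochberg over all genes averaging 1 FPKM or more, threshold 0.05). The capture was the replicate, and a block where both kinds came from it. The steps were tested on simulated data. Python 3.11.15 with scipy 1.17.1 made the permutation tests and exact intervals, which cover counting error only. Named genes are the members, other fibrillar collagens, markers, up to 5 called genes per list and comparison (6 for partners in mural cells) and the 3 most alike. Members, limits and lists were chosen with earlier results of these data known. Alternatives were the cell filter, scaling, pseudocounts, summary, filter on low values, block, limits on cells and each capture left out. Droplet-based cells were not analysed here.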

Additional observations from a re-analysis of the deposited data

Results flagged for a closer look

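In mural cells, log2(mean FPKM + 1) of Col1a1 was 12.71 in day 21 capture 1 (8 cells, mean 6689 FPKM), far from the 10.15 to 10.84 of the other 4 captures. The mean held 4 cells with 11792 to 15439 FPKM and 4 with 141 to 430 FPKM.

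The difference of Col5a1 between mural and other stromal cells was -0.50 in day 21 capture 1, far from the -2.49 to -1.97 of the other 4. These were the 2 values that stood apart in 42 groups checked, where chance gives about 1 in 20. A count of 2 in 42 is close to that rate.

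The difference of Col5a3 between mural and other stromal cells was -0.038 in the 1 capture of day 21, which is close to 0, and 0.70 to 1.73 in the 3 captures of day 12. The sign of the day 21 value singled it out and shows no opposite direction. With 1 capture each on days 15 and 21, an exact permutation test cannot go below 0.1, so whether the days differed remains untested.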

How the results depend on the processing

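No member was called between days under any alternative, and no ratio or share passed the test by day (adjusted p = 0.238 to 0.876 in matrix cells, which Col1a1 chose). Averaging over cells on the log2 scale raised the genes called to 28 (days 12 and 15) and 70 (days 12 and 21). The 1 gene called between days 12 and 21 became 0 with cells scaled to 1000000, no filter on low values, a pseudocount of 0.1 or without any capture (0 to 0), and 2 with matrix cells chosen by Dcn; between days 15 and 21, 1 was called with a pseudocount of 10. Capture numbers did not pair the captures (correlations of deviations -0.007 to 0.025), and with them as a replicate block 0 genes were called between days 12 and 21.

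Between mural and other stromal cells, 196 genes became 298 without the cell filter, 612 with log2 averages, 22 without the filter on low values, 531 without Dcn-high mural cells and 87 to 227 with a capture left out. Members called were 3 to 4 with a capture left out, 6 with log2 averages and 0 without the filter on low values, which tests more genes. Between myeloid and stromal cells, 958 genes became 192 without the cell filter, 218 with at least 5 cells, 1645 with scaled cells, 34 without the filter on low values, 1520 without the capture block (no replicate block), 1528 and 119 with pseudocounts of 0.1 and 10, 1500 without Dcn-high cells and 62 to 254 with a capture left out. Members called were 1 without the cell filter, 3 with at least 5 cells, 0 without the filter on low values or with a pseudocount of 10, and 0 to 3 with a capture left out. The causes were not tested.

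Signs turned only for differences between days that did not pass. From day 12 to 21, Col5a1 was 0.23 without the cell filter and -0.88 to 0.075 with a capture left out, and Col11a1 0.051 with a pseudocount of 10 and -1.01 to 0.96. From day 15 to 21, Col5a1 was 0.028 without the cell filter, Col3a1 -0.011 with cells chosen by Dcn and -0.062 without the limit on Col1a1, and Col5a3 -0.015 by Dcn. With a capture left out, Col1a1 was -0.83 to 0.20, Col3a1 -0.30 to 0.33, Col5a3 -0.42 to 0.44 and Col11a1 -0.42 to 1.55.

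With 2 or 3 captures per day, pooled mice and an estimated depth, a p that misses the threshold does not show equal levels, and a value of 0 in a cell means not detected at its depth.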
